A study of Mus musculus with 3 samples.

Results

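A set of 10 genes of the Hippo pathway were followed in mouse granulosa cells through the ovulatory response: the coactivators Yap1 and Wwtr1 (which encodes TAZ), the kinases Lats1 and Lats2, the DNA-binding partner Tead1, the scaffold genes Amotl1 and Amotl2, and the target genes Ctgf, Cyr61 and Ankrd1. They were chosen by name, and all 10 of 10 were found among the 24225 genes of the isoform table; Ctgf and Cyr61 stand in the reference as Ccn2 and Ccn1. In this pathway the kinases Stk3 and Stk4 activate Lats1 and Lats2, which phosphorylate YAP and TAZ and keep them out of the nucleus. Unphosphorylated YAP and TAZ have no DNA-binding domain of their own and act through TEAD factors at target genes. Much of this control is on protein phosphorylation and location, which transcript levels do not measure. In the ovary the pathway is known for its part in follicle growth and for its response to mechanical change.

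The cells came from wild type C57BL/6 females at postnatal days 21 to 28. All of the mice had received 4 IU of equine chorionic gonadotropin (eCG), which drives follicle growth. One group was taken before human chorionic gonadotropin (hCG, 0 h), and the others 4 h and 12 h after 5 IU of hCG, a ligand of the luteinizing hormone receptor that starts ovulation. Cells were released by puncturing follicles, RNA came from 3 mice at each time, and each time is 1 library, so no test was possible and every difference below is between 2 libraries. Levels are in FPKM (fragments per kilobase of transcript, relative to library depth), added up over a gene's RefSeq isoforms. The bounds given in parentheses are the deposited lower and upper bounds, summed in the same way, so they cover the error of estimating 1 library and say nothing of how mice vary. A log2 fold is that of FPKM + 1, later over earlier; adding 1 makes low genes appear to differ less than they do. The word called is kept for genes with a 2-fold or larger difference on this scale that reach 1 FPKM in either library.

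Depth, read from the steps between low values, was between 11600000 and 13400000 fragments per library. The granulosa markers Foxl2, Fshr and Inha were present in each library. In time order Foxl2 was at 149, 44.3 and 102 FPKM, Fshr at 133, 15.5 and 32.1 and Inha at 6986, 7163 and 3742. The 8 granulosa markers summed to 9196, 8002 and 5142, and Inha made up most of each sum. Apart from Inha, all of them but Amh (252, 351 and 406 FPKM) were lowest at 4 h. Markers of other cell types were present as well. Summed over 8 markers, endothelium stood at 17.4, 41.5 and 15.8 FPKM, with its defining genes Pecam1 (2.83, 5.01 and 2.83) and Cdh5 (5.59, 10.9 and 5.98) highest at 4 h. The bounds of Pecam1 overlapped throughout, those of Cdh5 at 4 h lay above both others, and neither gene was called. The 7 surface epithelium markers summed to 54.8, 134 and 78.5, the 8 theca and stroma markers to 406, 781 and 586, and the 7 smooth muscle markers to 127, 192 and 189. Much of the difference in the last 2 sums lay in Mgp (70.9, 371 and 191 FPKM) and Tagln (45.0, 101 and 79.8). Col1a2 (77.0, 76.0 and 86.5) and Acta2 (59.8, 59.1 and 75.4) differed little between 0 h and 4 h. The defining markers Pdgfra (3.28 and 7.40 FPKM at 0 h and 4 h), Cnn1 (3.28 and 6.06), Cyp17a1 (93.6 and 114) and Col1a1 (64.0 and 71.2) were higher at 4 h with bounds apart. So was Col3a1 (57.7 and 94.7), while the defining Myh11 (4.18 and 3.64) was lower with overlapping bounds. Of these genes only Mgp and Tagln were called at 4 h against 0 h. Of the defining surface epithelium markers, Krt19 (8.83 and 22.1 FPKM at 0 h and 4 h) was called higher and Upk3b (11.3 and 14.0) was not called. Leukocyte, oocyte and platelet markers summed to between 4.53 and 227 FPKM per list and library, and no defining marker of any list was at 0. In this bulk material fewer cells of a type and less RNA per cell cannot be told apart. Summed FPKM also differed between libraries, at 501561, 621365 and 472904, and bringing them to a common mean moved the median log2 fold of all genes to -0.29 for 4 h against 0 h and to 0.37 for 12 h against 4 h, from -0.01 and 0.01. The plot of member levels by time shows all 10 genes on the deposited scale.

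**Figure D1:**
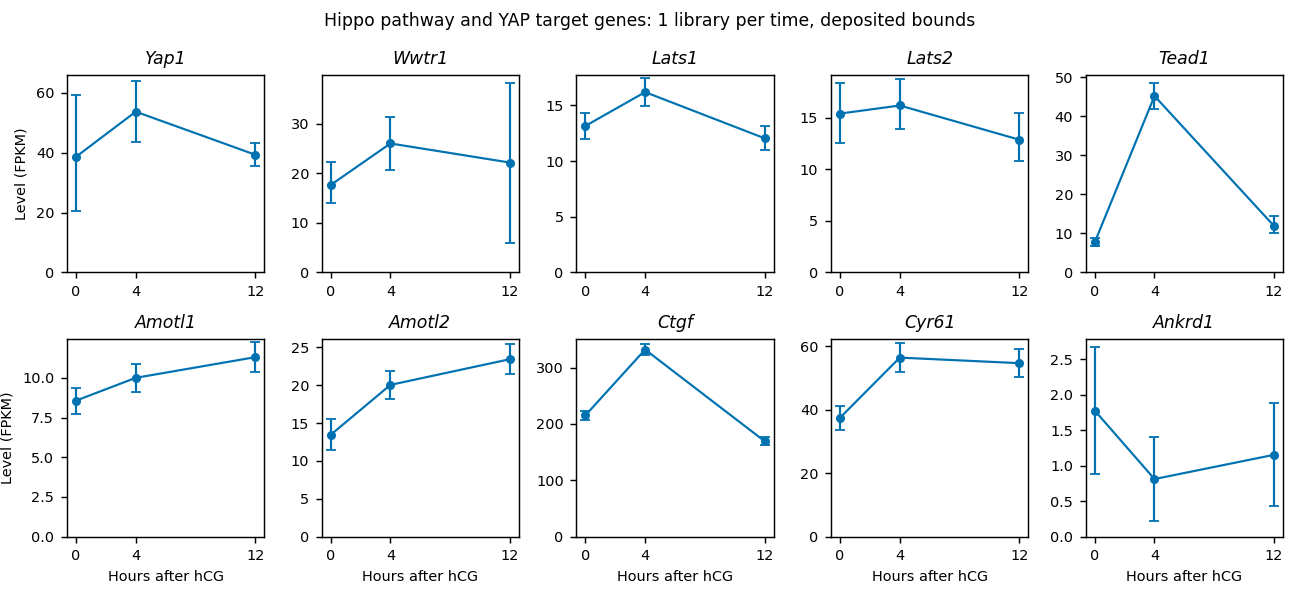
Level in FPKM (y axis, from 0, a separate scale per gene) against hours after hCG (x axis) for each of the 10 genes. Each point is 1 library, the bars are the summed deposited bounds and the lines only join the points; Tead1 goes from 7.67 to 45.3 and 11.9, while the other genes differ less between libraries.

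The sequences printed here are the coding exons by which isoforms of Yap1 and Tead1 differ, whose levels are given below, and, as a description apart from the expression values, the TEAD motif in promoters of the listed genes. For the exons, capitals mark the alternative exon and lower case the 12 coding bases on either side, read from GENCODE transcripts of the GRCm38 build. Exon 6 of the longer Yap1 isoform has 48 bases, or 16 codons, and lies on the minus strand at chr9:7950492-7950539. Tead1 has a coding exon 4 of 63 bases on the plus strand at chr7:112841888-112841950 and a coding exon 6 of 12 bases at chr7:112856053-112856064.
Yap1 exon 6: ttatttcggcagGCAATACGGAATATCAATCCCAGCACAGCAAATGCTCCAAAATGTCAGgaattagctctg
Tead1 exon 4: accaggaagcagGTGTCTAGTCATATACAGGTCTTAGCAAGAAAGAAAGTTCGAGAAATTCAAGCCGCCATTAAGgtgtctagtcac
Tead1 exon 6: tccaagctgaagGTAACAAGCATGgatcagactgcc

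Promoter windows, from 250 bases before to 50 bases after an annotated start, were taken from RefSeq on GRCm38.p6. They matched 8 of the 10 genes, all but Tead1 and Ctgf. The windows of Amotl1 (upstream part chr9:14615001-14615250) and Amotl2 (chr9:102717554-102717803) lie inside the gene spans given below. So does 1 window of Lats2 (chr14:57734419-57734668). Distances are from the start to which a window belongs. All windows were searched on both strands for CATTCC, the core of the TEAD motif, whose reverse complement is GGAATG. The motif was present in windows of 6 of the 8 genes (7 of their 10 windows), and in 14.7% of all 32851 windows, or 16.6% of 27025 genes. The AP-1 motif TGANTCA, found in 7.81% of all windows, and the CRE motif TGACGTCA, found in 1.79%, were in none of the 10 windows. No TEAD match could therefore overlap one of these. A match describes letters in this window and does not show binding. The sites are given as 30 bases on the gene's strand with the motif in capitals, to show which listed genes hold it and where.
Cyr61, 103 bases before the start: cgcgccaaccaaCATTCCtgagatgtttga
Amotl2, 65 bases before the start: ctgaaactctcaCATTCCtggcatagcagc
Ankrd1, 210 bases before the start: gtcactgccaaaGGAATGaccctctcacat
Ankrd1, 123 bases before the start: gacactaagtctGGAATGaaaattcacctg
Wwtr1, 170 bases before the start of 1 window and 136 of the other: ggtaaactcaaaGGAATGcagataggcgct
Yap1, 141 bases before the start: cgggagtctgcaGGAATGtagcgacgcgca
Lats2, at base 5 after the start: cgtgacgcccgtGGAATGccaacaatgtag

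Ankrd1 was the only listed gene with more than 1 motif in a window, and Cyr61 was the most abundant target gene with a window. The 250 bases before the start of each are on the minus strand, at chr19:36119845-36120094 for Ankrd1 and chr3:145649986-145650235 for Cyr61, with the motif in capitals.
Ankrd1: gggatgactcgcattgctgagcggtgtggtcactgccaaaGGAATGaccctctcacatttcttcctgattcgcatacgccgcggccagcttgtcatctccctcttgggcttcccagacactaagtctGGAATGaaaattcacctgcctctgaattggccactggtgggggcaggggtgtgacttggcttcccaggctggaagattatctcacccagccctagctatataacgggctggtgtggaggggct
Cyr61: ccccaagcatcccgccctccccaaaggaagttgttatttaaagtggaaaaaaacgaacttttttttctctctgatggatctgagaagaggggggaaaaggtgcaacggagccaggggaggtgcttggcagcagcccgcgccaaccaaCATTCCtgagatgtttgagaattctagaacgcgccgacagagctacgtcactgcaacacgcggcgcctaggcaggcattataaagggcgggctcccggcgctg

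The first question was which of the 10 genes differed early after hCG and whether they were back at 12 h. Tead1 (chromosome 7, 112679356 to 112906784), which encodes the TEAD factor also called TEF-1, was at 7.67 FPKM at 0 h (6.65 to 8.93), 45.3 at 4 h (41.9 to 48.7) and 11.9 at 12 h (10.1 to 14.5). It was high in the 4 h library alone, and the bounds of the 3 libraries lay apart. Its log2 fold was 2.42 at 4 h against 0 h, above that of 97.6% of genes, and -1.84 at 12 h against 4 h. It was the only 1 of the 10 called at 4 h against 0 h, where 17.3% of 13240 genes were called, 10.2% higher and 7.03% lower, and the only 1 called at 12 h against 4 h, where 12.7% of 13242 genes were called, 4.83% higher and 7.88% lower. The share of the 10 that was called is thus no larger than that of all genes. At 12 h against 0 h none of the 10 was called, against 5.7% of 13026 genes (3.16% higher and 2.55% lower), and the log2 fold of Tead1 was 0.57. With libraries brought to a common mean sum the folds of Tead1 were 2.12, -1.47 and 0.65, and with median-of-ratios scaling 2.40, -1.81 and 0.59. Of the genes called at 4 h against 0 h, 59.3% were higher on the deposited scale and 36.7% on the rescaled one; at 12 h against 4 h these shares were 38.0% and 70.7%.

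All 10 genes passed the filter on low values in each comparison. At 4 h against 0 h their median log2 fold was 0.50, beside -0.01 over all genes, and 9 of 10 folds were positive; with libraries brought to a common mean sum the median was 0.20 beside -0.29, and 6 of 10 were positive. At 12 h against 4 h the median was -0.27 beside 0.01, with 7 of 10 negative, and turned to 0.11 beside 0.37 on the rescaled libraries, with 4 of 10 negative (Yap1, Lats1, Tead1 and Ctgf). At 12 h against 0 h it was 0.17 beside -0.02, or 0.25 beside 0.06 when rescaled. With median-of-ratios scaling 9 of 10 folds were positive at 4 h against 0 h (median 0.49). Under it 7 of 10 were negative at 12 h against 4 h (median -0.23). The first 2 comparisons share the 4 h library, so a high or low value there enters both with opposite sign. Summed bounds lay apart for 5 of 10 genes at 4 h against 0 h (37.3% of all genes), for 4 of 10 at 12 h against 4 h (32.7%) and for 5 of 10 at 12 h against 0 h (16.1%). The summed levels of the endothelial, surface epithelium, theca and stroma, and smooth muscle markers were likewise highest at 4 h. Of the markers that passed the filter, 2 of 7, 4 of 7, 1 of 8 and 1 of 7 were called higher than at 0 h, beside 10.2% of all genes. Of the granulosa markers 4 of 8 were called lower at 4 h against 0 h, beside 7.03% of all genes. At 12 h against 4 h, 4 of 8 granulosa markers were called higher, beside 4.83% of all genes. There 4 of 7 endothelial and 1 of 7 surface epithelium markers were called lower, beside 7.88% of all genes. No theca and stroma or smooth muscle marker was called in that comparison. The oocyte markers summed to 156, 126 and 227 FPKM, lowest at 4 h. The part of these cell types in the values of the 10 genes was not tested.

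**Figure D2:**
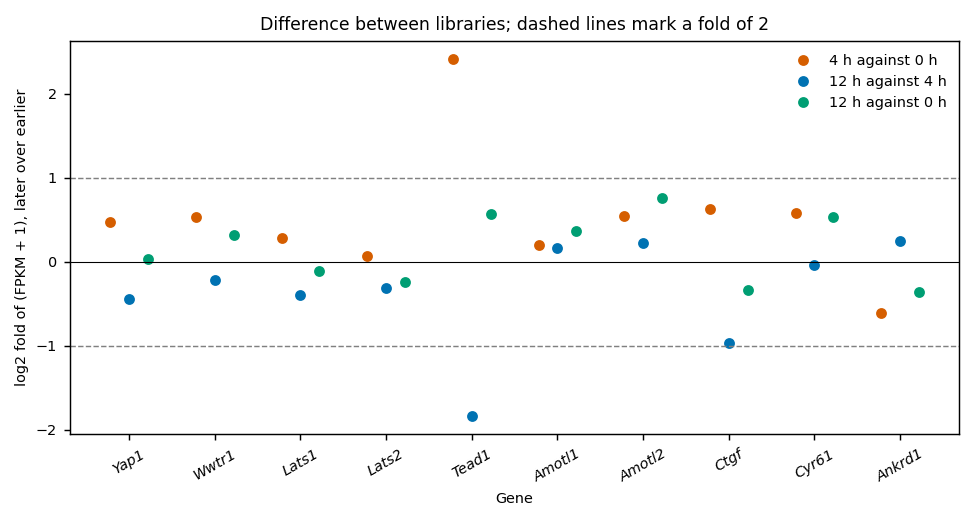
Log2 fold of FPKM + 1 (y axis) for each of the 10 genes (x axis) in the 3 comparisons (colours), with 1 point per gene and comparison and no replicates. Only Tead1 passes the dashed lines at a fold of 2, at 2.42 and -1.84, and Ctgf comes next at -0.97.

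Among the 4 TEAD genes, Tead2 held the highest level at each time. Tead2 was at 45.3 FPKM at 0 h (41.1 to 49.8), 53.7 at 4 h (49.3 to 58.5) and 74.2 at 12 h (68.9 to 79.8), and its 12 h bounds lay above both others. Tead3 was at 6.23, 7.31 and 6.66 FPKM with wide bounds that overlapped throughout, and Tead4 stayed at or under 0.34. Tead1 thus made up 12.9% of summed TEAD transcript levels at 0 h, 42.5% at 4 h and 12.8% at 12 h, and Tead2 76.1%, 50.5% and 79.9%. Tead2 was 5.90 times as high as Tead1 at 0 h, 1.19 times at 4 h and 6.24 times at 12 h, and its lower bound at 4 h (49.3) lay just above the upper bound of Tead1 (48.7).

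**Figure D3:**
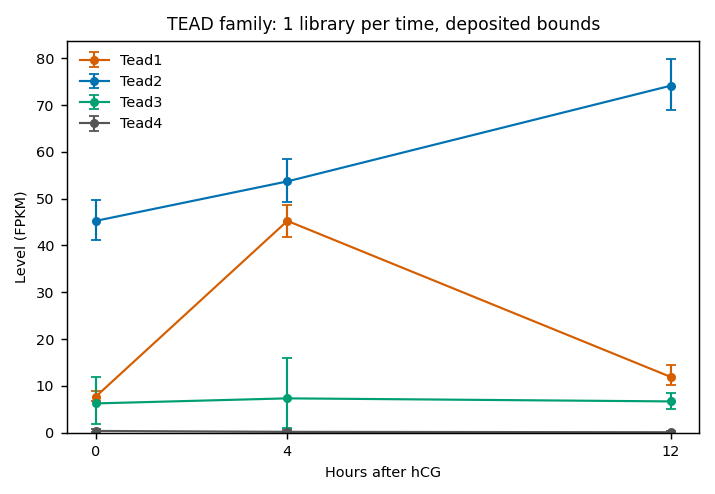
Level in FPKM (y axis) of the 4 TEAD genes against hours after hCG (x axis); each point is 1 library, bars are summed deposited bounds and lines join the points. Tead1 comes close to Tead2 only at 4 h (45.3 and 53.7 FPKM), and Tead3 and Tead4 stay below 10 FPKM.

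Most of Tead1 was the isoform that lacks exon 4 and exon 6 (NM_001166585, 411 codons before the stop). It stood at 7.496 FPKM at 0 h (6.65 to 8.34), 41.3 at 4 h (39.1 to 43.5) and 11.1 at 12 h (10.1 to 12.04), which is 97.7%, 91.2% and 93.3% of the gene. The isoform with both exons (NM_001166584, 436 codons) was near 0 at 0 h and was at 3.97 FPKM (2.80 to 5.14) at 4 h, or 8.77% of the gene, and at 0.373 (0 to 1.14) at 12 h. The isoform with the 12-base exon alone (NM_009346) stayed at or under 0.427 FPKM. The genes with the time course most like that of Tead1, by Euclidean distance of centred log2(FPKM + 1) over the 3 libraries among 10050 coding genes with at least 5 FPKM, were Fgl2 (3.81, 24.7 and 6.08 FPKM; distance 0.01), the tropomyosin Tpm4 (106, 568 and 160; 0.02) and the prostaglandin E receptor Ptger4 (0.539, 7.47 and 1.24; 0.05). With 3 libraries such a match is a description of shape only.

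The coactivators were present at each time and were not called in any comparison. Yap1 (chromosome 9, 7931999 to 8004638) was at 38.6 FPKM at 0 h (20.5 to 59.2), 53.8 at 4 h (43.5 to 64.0) and 39.3 at 12 h (35.5 to 43.1), with log2 folds of 0.47, -0.44 and 0.03 in the order 4 h against 0 h, 12 h against 4 h and 12 h against 0 h. On the deposited scale the 4 h value was the highest, its bounds lay apart from those at 12 h by a small margin, and those at 0 h overlapped both. The Yap1 folds became 0.16, -0.06 and 0.11 on the rescaled libraries, so little of the 4 h difference was left there. With median-of-ratios scaling the first 2 were 0.46 and -0.41. Wwtr1 (chromosome 3, 57455644 to 57575910) was at 17.6 (14.0 to 22.3), 26.0 (20.6 to 31.4) and 22.1 FPKM (5.99 to 38.3), and its bounds overlapped between all libraries. Its log2 folds were 0.54, -0.22 and 0.31, and became 0.24, 0.16 and 0.40 on the rescaled libraries. Read from its highest isoform alone, its fold at 12 h against 0 h changed sign to -0.28. Yap1 stood at 2.19, 2.07 and 1.78 times the level of Wwtr1 at 0, 4 and 12 h.

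The higher 4 h value of Yap1 lay in 1 isoform. The isoform with exon 6 (NM_001171147, 488 codons) was at 7.70 FPKM at 0 h (0 to 17.9), 22.4 at 4 h (17.4 to 27.4) and 3.69 at 12 h (2.56 to 4.82). The isoform without it (NM_009534, 472 codons) was at 30.9 (20.5 to 41.4), 31.4 (26.1 to 36.6) and 35.7 FPKM (33.0 to 38.3), with overlapping bounds throughout. The share of the exon 6 isoform was therefore 19.9%, 41.6% and 9.38% of Yap1, and its 4 h and 12 h bounds lay apart, while those at 0 h overlapped with both. The 48 bases keep the reading frame and fall in the transactivation region of YAP. If Yap1 is read from its highest isoform alone, the log2 fold of 12 h against 4 h changes sign, from -0.44 to 0.18. Wwtr1 has 2 isoforms that differ in where coding begins. The one with the shorter coding sequence (NM_133784, 395 codons) was at 0.988 FPKM (0 to 3.04), 7.55 (5.04 to 10.1) and 8.61 (0.628 to 16.6), apart between 0 h and 4 h only, and made up 5.61%, 29.1% and 38.9% of the gene. The longer one (NM_001168281, 452 codons) was at 16.6, 18.4 and 13.5 FPKM with overlapping bounds.

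**Figure D4:**
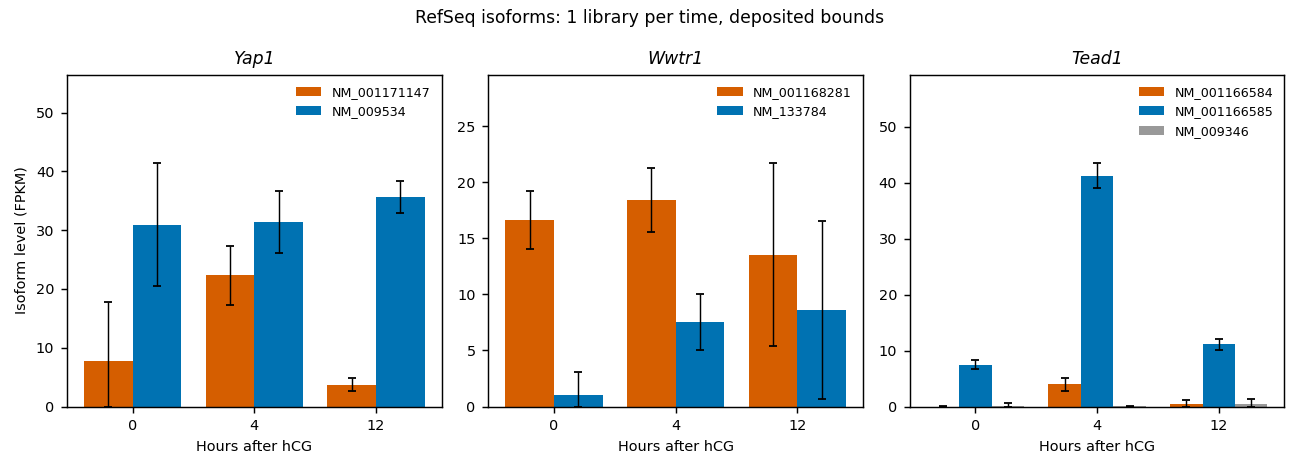
Level in FPKM (y axis, from 0) of each RefSeq isoform (colours) of Yap1, Wwtr1 and Tead1 at 0, 4 and 12 h after hCG (x axis); each bar is 1 library with its deposited bounds. The Yap1 isoform with exon 6 (NM_001171147) is at 22.4 FPKM at 4 h against 7.70 and 3.69, and the other Yap1 isoform stays between 30.9 and 35.7.

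The LATS kinases, which phosphorylate YAP and TAZ, held similar levels to each other in each library. Lats1 (chromosome 10, 7681200 to 7716461) was at 13.2 FPKM (12.0 to 14.3), 16.2 (14.9 to 17.5) and 12.04 (10.96 to 13.1). It was highest at 4 h, apart from both other libraries, but by a log2 fold of only 0.28 over 0 h. This fold became -0.01 with libraries brought to a common mean sum and 0.27 with median-of-ratios scaling. Lats2 (chromosome 14, 57689662 to 57746212), itself a known target of YAP, was at 15.4 (12.5 to 18.3), 16.2 (13.9 to 18.8) and 12.9 FPKM (10.8 to 15.4), with overlapping bounds throughout. The ratio of Lats2 to Lats1 was 1.17, 0.999 and 1.07. The Lats2 level includes a short isoform of 176 codons, beside 1042 for the other. The short one was at 1.46, 0.854 and 0.172 FPKM, or 9.50%, 5.27% and 1.34% of the gene.

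The angiomotin-like genes, whose proteins bind YAP at cell junctions, had their highest value at 12 h. Amotl2 (chromosome 9, 102717091 to 102733418), also a known YAP target, was at 13.4 FPKM (11.4 to 15.5), 20.04 (18.2 to 21.9) and 23.4 (21.4 to 25.4). Its 0 h bounds lay below both later ones, and its log2 fold of 0.76 at 12 h against 0 h was above that of 94.2% of genes, the highest of the 10. Amotl1 (chromosome 9, 14541966 to 14662974) was at 8.57 (7.75 to 9.39), 10.01 (9.12 to 10.9) and 11.3 FPKM (10.4 to 12.2), apart between 0 h and 12 h only. At 4 h against 0 h its fold of 0.20 became -0.08 on the rescaled libraries and 0.19 with median-of-ratios scaling.

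The 3 target genes did not share a time course. Ctgf (chromosome 10, 24595442 to 24598683), a secreted matricellular protein, had the highest level of the 10 at each time: 215 FPKM at 0 h (207 to 224), 332 at 4 h (322 to 343) and 169 at 12 h (162 to 177). All 3 libraries lay apart, with 4 h high and 12 h low, and the log2 folds were 0.62, -0.97 and -0.34. The fold of -0.97 was just inside the threshold, and was -0.58 on the rescaled libraries and -0.93 with median-of-ratios scaling. The fold of 0.62 became 0.32 and 0.61 under the same 2 settings. Cyr61 (chromosome 3, 145646971 to 145649985), of the same protein family, was at 37.4 (33.7 to 41.2), 56.4 (51.8 to 61.0) and 54.6 FPKM (50.1 to 59.2). Both later libraries lay above 0 h and overlapped with each other, with log2 folds of 0.58, -0.04 and 0.53. For Cyr61 these became 0.28, 0.34 and 0.62 on the rescaled libraries, and 0.57, -0.01 and 0.56 with median-of-ratios scaling. Ctgf was 5.75, 5.89 and 3.10 times as high as Cyr61. Ankrd1 (chromosome 19, 36111965 to 36119844), a cardiac ankyrin repeat protein widely used as a YAP reporter, was at 1.78 (0.887 to 2.67), 0.810 (0.219 to 1.40) and 1.15 FPKM (0.428 to 1.88). It was the lowest of the 10 at each time, its bounds overlapped throughout, and its log2 folds were -0.62, 0.25 and -0.37. By these bounds no difference in Ankrd1 could be told from the error of the estimate. Smooth muscle and stromal cells also express these genes; their part in the values was not tested.

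In the order of levels, Ctgf stood apart from the next gene at each time and Ankrd1 from the one above it. At 0 h Yap1 and Cyr61 overlapped, as did each neighbouring pair from Wwtr1 (17.6) through Lats2 (15.4) and Amotl2 (13.4) to Lats1 (13.2), and Amotl1 (8.57) and Tead1 (7.67). At 4 h Tead1 had moved from the ninth place to the fourth, overlapping with Yap1. At 12 h the neighbouring bounds of Lats2, Lats1, Tead1 and Amotl1, between 12.9 and 11.3 FPKM, overlapped again.

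Other genes of the pathway were taken from 3 lists with 70 distinct genes, chosen with earlier results of these data known. Of 37 upstream and kinase genes, 36 passed the filter at 4 h against 0 h, and 5 were called higher, none lower and 31 neither, with a median log2 fold of 0.29. Over all genes 10.2% were called higher and 7.03% lower, with a median of -0.01. Those called were Sav1, Frmd6, Amot, Dchs1 and Mob1b. Sav1, the scaffold that joins Stk3 and Stk4 to the LATS kinases, was at 29.5 FPKM (25.4 to 33.7), 122 (116 to 128) and 56.9 (52.2 to 61.6). The junctional FERM protein gene Frmd6 was at 2.37, 13.4 and 4.07 FPKM and the angiomotin gene Amot at 7.35, 23.2 and 6.15. The protocadherin Dchs1 was at 0.802, 4.09 and 1.66 FPKM and Mob1b, a LATS cofactor, at 4.97, 12.4 and 6.08. The kinases themselves were within 2-fold, with Stk3 at 20.7, 14.6 and 15.4 FPKM and Stk4 at 14.4, 14.0 and 13.2. Stk3 was lower at 4 h than at 0 h (log2 fold -0.47), with bounds just apart (11.7 to 17.49 against 17.57 to 23.8). At 12 h against 4 h, Sav1, Frmd6 and Amot were called lower and none of the 35 that passed was called higher (median -0.22). Over all genes 7.88% were called lower and 4.83% higher there. At 12 h against 0 h none of 36 was called (median 0.01), beside 5.7% of all genes.

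Of 11 transcription partners only 7 passed the filter. At 4 h against 0 h, Runx2, Runx1 and Vgll3 were called higher and none lower (median 0.63; all genes as above). The RUNX factors, which bind YAP and TAZ as well as acting on their own, were at 5.57, 94.2 and 21.3 FPKM for Runx1 and 2.23, 72.6 and 12.2 for Runx2. They were called lower at 12 h against 4 h, as were 7.88% of all genes, and higher at 12 h against 0 h, as were 3.16%. The TEAD cofactor Vgll3 was at 1.32, 4.58 and 2.36 FPKM, and Vgll4, which competes with YAP for TEAD, was at 9.44, 12.6 and 9.35.

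Of 24 further conserved YAP and TAZ targets, 21 passed the filter and 7 were called higher at 4 h against 0 h, none lower (median 0.64), beside 10.2% of all genes higher and 7.03% lower (median -0.01). The coagulation factor receptor F3 went furthest, at 5.61 FPKM (4.00 to 7.22), 633 (617 to 650) and 38.7 (33.8 to 43.5). Igfbp3 was at 1.51, 11.1 and 0.920 FPKM, the 5' nucleotidase Nt5e at 1.40, 8.20 and 1.76, Gadd45a at 26.0, 87.4 and 57.4, the endothelin Edn1 at 1.79, 6.28 and 6.28, the thrombospondin Thbs1 at 190, 422 and 322, and Crim1 at 74.5, 156 and 58.0. In the other direction, the 0 h and 4 h values were 7.28 and 3.64 FPKM for Dock5 and 72.5 and 41.4 for the mitotic gene Birc5, neither of which was called. At 12 h against 4 h, F3, Igfbp3, Nt5e and Crim1 of the 21 were called lower and none higher (median -0.13). Over all genes 7.88% were called lower and 4.83% higher there. At 12 h against 0 h F3, Edn1 and Gadd45a were called higher and none lower (median 0.40), beside 3.16% higher and 2.55% lower of all genes. Many of these genes also respond to other signals, and the lists were not tested as sets. Over the 70 genes, 15 were called higher and 0 lower at 4 h against 0 h, which became 12 and 2 on the rescaled libraries; over all genes 1356 were higher and 931 lower, which became 1000 and 1728. At 12 h against 4 h, 0 were higher and 9 lower, which became 2 and 8, beside 639 and 1043 of all genes, which became 1670 and 693. With median-of-ratios scaling the counts of the 70 genes stayed at 15 and 0 in the first comparison and 0 and 9 in the second.

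**Figure D5:**
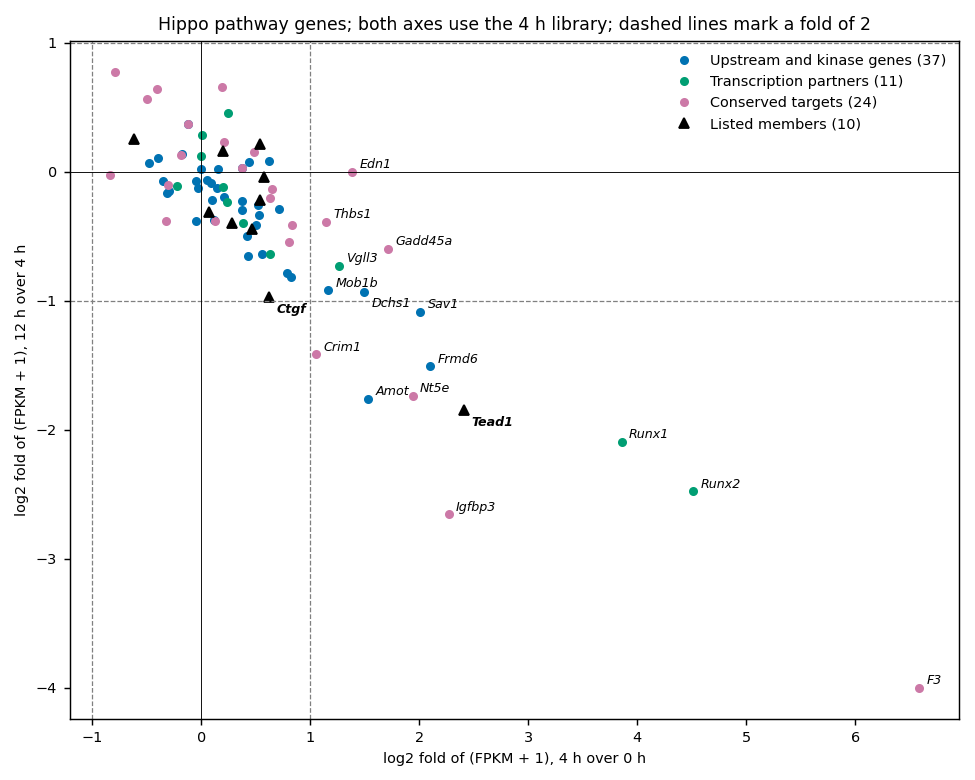
Log2 fold of FPKM + 1 at 4 h over 0 h (x axis) and at 12 h over 4 h (y axis) for the 3 lists (colours, with the number of genes) and the 10 listed genes (triangles); 1 point per gene, no replicates. Both axes use the 4 h library, so points tend toward the lower right or upper left by construction; F3, Runx2, Runx1 and Tead1 lie farthest to the right, at 6.58, 4.51, 3.86 and 2.42.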

How the data were processed

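Messenger RNA of granulosa cells at 3 times was read from 1 deposited table of FPKM per RefSeq isoform, with bounds that the authors deposited beside each value. The submitters' processing notes name CASAVA 1.8, TopHat2 2.1.1, Cufflinks 2.2.1 and mm10 with no role or order; strandedness and pooling of RNA are not given in the sources used here, so reads of the antisense genes Gm20416 (Yap1) and Gm15270 (Ctgf) cannot be told apart from those genes, and Gm49361 overlaps Lats2 on its own strand. Bounds lie 2 of the file's standard deviations from the value. Of 34535 isoforms, 34169 were matched through RefSeq and 193 through GENCODE, 173 were left out, and the rest summed to 24225 genes; 12 estimates marked as failed include 0 of the listed genes. Bounds were summed per gene. Depth was read from steps of low values, 70.1% to 71.7% of which lay within 0.1 of a whole fragment (chance 20%). With 1 library per time no test was run. The 10 genes, the lists, the alternatives and the naming rule were chosen with earlier results of these data known. The rule covered all listed genes, every pathway list gene past a fold of 2, defining markers and the 3 nearest time courses of a called gene. Tead2, Tead3, Tead4, Stk3, Stk4, Vgll4, Dock5 and Birc5 were named after their values were seen. So were the markers Mgp, Tagln, Col1a2, Col3a1, Acta2 and Amh. The calling step was tested on simulated data that held counting error alone. That test does not cover variation between mice or the assignment of reads to isoforms. Python 3.11.15, pandas 2.3.3 and numpy 2.4.6 were used.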

Additional observations from a re-analysis of the deposited data

How the results depend on the processing

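Tead1 was called at 4 h against 0 h and at 12 h against 4 h under each alternative, except that a fold of at least 4 left 0 of the listed genes at 12 h against 4 h. At 4 h against 0 h a pseudocount of 0.1 FPKM gave 2 called genes (Tead1, and Ankrd1 lower) and a fold of at least 1.5 gave 3 (Ctgf in addition), where 23.7% and 37.8% of all genes were called; at that fold 2 were called at 12 h against 4 h (Tead1 and Ctgf) and 1 at 12 h against 0 h (Amotl2), beside 32.2% and 15.5% of all genes. Over the 70 other pathway genes, counts of 15, 9 and 5 in the 3 comparisons became 25, 20 and 14 at a fold of 1.5 and 6, 4 and 2 at a fold of 4. Of 150 folds of listed genes under the 5 alternatives that can alter a fold, 139 stayed within the range their bounds allow. This range is wide for genes with wide bounds, so staying within it is a weak criterion. Yap1 at 4 h against 0 h counts as within it, though its fold was 0.47 from the sum and 0.02 from its highest isoform. Of the 150 folds 8 changed sign, 6 of them on rescaled libraries and none a called fold. Combining bounds as root of summed squares set Wwtr1 apart as well at 4 h against 0 h. No paired analysis was possible because each time is 1 library. Ankrd1 lay nearest to the floor of the listed genes, where 1 fragment on 2 kb is worth 0.0373 to 0.0431 FPKM.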
